A study of Rattus norvegicus with 35 samples.

Results

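The Wnt ligands, receptors and modulators described here are 38 genes of the rat liver transcriptome, out of 13439 genes measured. They were chosen by symbol: every numbered Wnt, Fzd, Sfrp, Dkk, Rspo and Dvl gene, Lgr4 to Lgr6, and Lrp5, Lrp6, Axin1, Axin2, Wif1, Dixdc1, Tcf7l2 and Lef1, as far as a probe set of the array carried that single symbol. This gave 13 Wnt ligands, 7 Frizzled receptors, 4 secreted Frizzled-related proteins, 2 Dickkopf proteins, 1 R-spondin, 2 Dishevelled proteins, 1 Lgr receptor and all 8 of the singly named genes. The members came from 53 probe sets, and where a gene had several the brightest stood for it.

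Liver RNA was measured on single-colour Affymetrix arrays from 35 rats in 6 groups. Control rats went through a sham hemorrhage and resuscitation procedure (control sham, n = 5) or the real one (control H/R, n = 6). Cirrhotic rats, studied 4 weeks after the common bile duct was double ligated and cut, went through the sham procedure (ligated sham, n = 5) or hemorrhage and resuscitation (ligated H/R, n = 6). In the last pair of groups, ligated rats had received simvastatin, an HMG-CoA reductase inhibitor, by gavage at 5 mg/kg daily, starting 3 days before the study and ending 1 h before it. The simvastatin sham group had 5 rats and the simvastatin H/R group 8 rats. All ligated rats received weekly vitamin K. The labels used here give no strain, age or sex, and do not say whether control rats had a sham ligation or whether ligated rats without simvastatin had vehicle. Whole liver was measured, so that for any transcript fewer cells of a type and less RNA per cell cannot be told apart.

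Wnt proteins are secreted lipid-modified ligands that bind a Frizzled receptor together with the co-receptor Lrp5 or Lrp6. Dishevelled then restrains the complex of Axin, Apc and Gsk3 that marks beta-catenin for destruction, and beta-catenin enters the nucleus to act with Tcf and Lef factors. R-spondins with Lgr receptors strengthen this signal, whereas secreted Frizzled-related proteins and Wif1 bind the ligands and Dickkopf proteins such as Dkk2 act at the co-receptor. In the liver the pathway is best known for setting the gene programme of hepatocytes around the central vein, and Wnt ligands of the branch that does not use beta-catenin act on cell polarity and calcium.

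All levels below are the deposited normalized log2 signals, on which a difference of 1 is a 2-fold difference, and levels of different genes were not set against each other. A gene counted as above background where its group mean exceeded the mean of the brightest of 23 nonspecific probes on the same arrays. That background was not the same in every group. It was 4.51 ± 0.41 (SD, n = 5) in control sham and 4.59 ± 0.39 (n = 6) in control H/R, against 3.64 ± 0.51 in ligated sham (n = 5), 4.0 ± 0.27 in ligated H/R (n = 6), 3.26 ± 0.2 in simvastatin sham (n = 5) and 3.32 ± 0.33 in simvastatin H/R (n = 8). The signal of the hybridisation control BioD minus that of BioB also differed, at 3.2 and 3.21 in the control groups and 3.57 to 3.72 in the ligated groups. The control titles share an ending that no title of a ligated rat without simvastatin carries, and the labels do not explain these endings, so that in the comparisons without simvastatin whatever they mark and ligation cannot be told apart. The same ending is carried by 9 of the ligated rats on simvastatin, whose background ran from 2.71 to 3.65 against 4.05 to 5.16 in the 11 control rats. Levels within that ending are given after the ligation comparisons. One array, simvastatin sham replicate 1, stood apart: its actin probes for the 3′ end exceeded those for the 5′ end by 4.3 and its GAPDH probes by 2.2, whereas no other array passed 2.34 and 0.34.

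Above background were 12 of the 38 genes in control sham, 11 in control H/R, 21 in ligated sham, 19 in ligated H/R, 22 in simvastatin sham and 23 in simvastatin H/R. The same count over all genes was not made, and the background was lower in the ligated groups. Wnt2b, for example, was not above background at 3.82 in control sham but was at 3.69 in ligated sham. The 10 genes above background in all 6 groups were the ligand Wnt5b, the receptors Fzd1, Fzd6 and Fzd8, the co-receptor Lrp6, the R-spondin receptor Lgr4, the cytoplasmic proteins Dvl1, Axin1 and Dixdc1, and the nuclear factor Tcf7l2. The 15 genes above it in none were Wnt2, Wnt5a, Wnt6, Wnt8b, Wnt11, Wnt16, Sfrp2, Sfrp4, Sfrp5, Wif1, Fzd3, Fzd4, Fzd5, Dvl3 and Lef1. For these 15 a difference between groups cannot be separated from a difference in background.

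Start sites of the members were read for letters that the pathway's nuclear factors are known to bind. RefSeq promoters of the rat build GRCr8, running from 250 bases before to 50 bases after the annotated start, were at hand for 27 of the 38 genes. The TCF and LEF letters CTTTGAT and CTTTGTT, or their reverse complements ATCAAAG and AACAAAG, stood in 9.39% of 33469 promoters of this length and in 1 of the 27, that of Axin2, the textbook feedback target of beta-catenin. The GC box letters GGGGCGG or the reverse CCGCCCC, a general promoter element, stood in 20.6% of all promoters and in 12 of the 27, among them the 3 of the ligands raised after ligation that had an entry, Wnt4, Wnt7a and Wnt9a. Both motifs were searched on both strands, and a match is a run of letters, not a bound site. The promoters of these 4 genes are shown 5′ to 3′ along the gene's own strand, the matched letters in capitals (TCF and LEF letters for Axin2 and GC boxes for the others, where 2 of the matches of Wnt7a overlap). They lie at chr10:94398535-94398834 (plus strand) for Axin2, chr5:154797200-154797499 (plus strand) for Wnt4, chr4:125466100-125466399 (minus strand) for Wnt7a and chr10:44593441-44593740 (plus strand) for Wnt9a.
Axin2: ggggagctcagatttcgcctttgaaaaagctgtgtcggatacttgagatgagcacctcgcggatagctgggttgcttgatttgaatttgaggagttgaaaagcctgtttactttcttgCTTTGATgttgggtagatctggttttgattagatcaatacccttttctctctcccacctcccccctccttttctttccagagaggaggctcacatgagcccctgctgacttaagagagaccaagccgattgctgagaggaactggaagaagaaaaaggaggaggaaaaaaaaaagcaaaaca
Wnt4: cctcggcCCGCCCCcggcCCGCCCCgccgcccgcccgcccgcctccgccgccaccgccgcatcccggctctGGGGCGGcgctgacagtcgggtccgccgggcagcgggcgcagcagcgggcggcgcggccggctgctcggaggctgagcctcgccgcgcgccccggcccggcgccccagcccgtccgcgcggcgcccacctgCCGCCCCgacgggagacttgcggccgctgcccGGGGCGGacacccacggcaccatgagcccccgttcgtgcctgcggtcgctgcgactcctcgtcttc
Wnt7a: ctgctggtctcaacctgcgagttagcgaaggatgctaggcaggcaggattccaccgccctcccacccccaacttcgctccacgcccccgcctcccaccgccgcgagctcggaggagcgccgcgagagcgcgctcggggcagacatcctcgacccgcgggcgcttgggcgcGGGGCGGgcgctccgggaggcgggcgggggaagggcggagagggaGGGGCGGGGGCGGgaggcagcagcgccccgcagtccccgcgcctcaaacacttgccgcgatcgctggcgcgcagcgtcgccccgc
Wnt9a: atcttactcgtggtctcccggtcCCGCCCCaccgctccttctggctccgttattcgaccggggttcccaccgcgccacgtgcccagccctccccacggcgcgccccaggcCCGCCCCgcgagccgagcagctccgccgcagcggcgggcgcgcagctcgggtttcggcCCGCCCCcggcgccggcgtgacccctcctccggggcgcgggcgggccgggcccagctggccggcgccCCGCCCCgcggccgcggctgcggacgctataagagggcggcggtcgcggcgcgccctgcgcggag
The ligand promoters held 5, 3 and 4 matches in that order, and none of the 3 held the TCF and LEF letters in this window.

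The first comparison asked how cirrhosis after bile duct ligation differed from control liver in rats that had only the sham procedure. Among the ligands Wnt4, Wnt5b, Wnt7a and Wnt9a rose, among the secreted modulators Dkk2, Dkk3 and Sfrp1, among the receptors Fzd2 and Fzd6, and in the nucleus Tcf7l2. Dixdc1, Lrp5, Fzd8 and Dvl1, which lie at or under the membrane, fell. By limma with Benjamini-Hochberg adjustment over all 13439 genes, 11 of the 38 were higher at an adjusted p under 0.05, where 25.3% of all genes were, and 9 were lower, where 22.4% of all genes were. These shares are near those of all genes, and the median log2 difference was -0.14 over the 38 and -0.04 over all genes. Arrays of the groups did not overlap for 10 of the higher and 3 of the lower genes, beside 18.8% and 13.3% of all genes. When each array was centred on its median the split was 10 higher and 15 lower, since that centring moved the median of all genes from -0.043 to -0.231. Of all 13439 genes 2594 were then higher and 5128 lower.

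**Figure D1:**
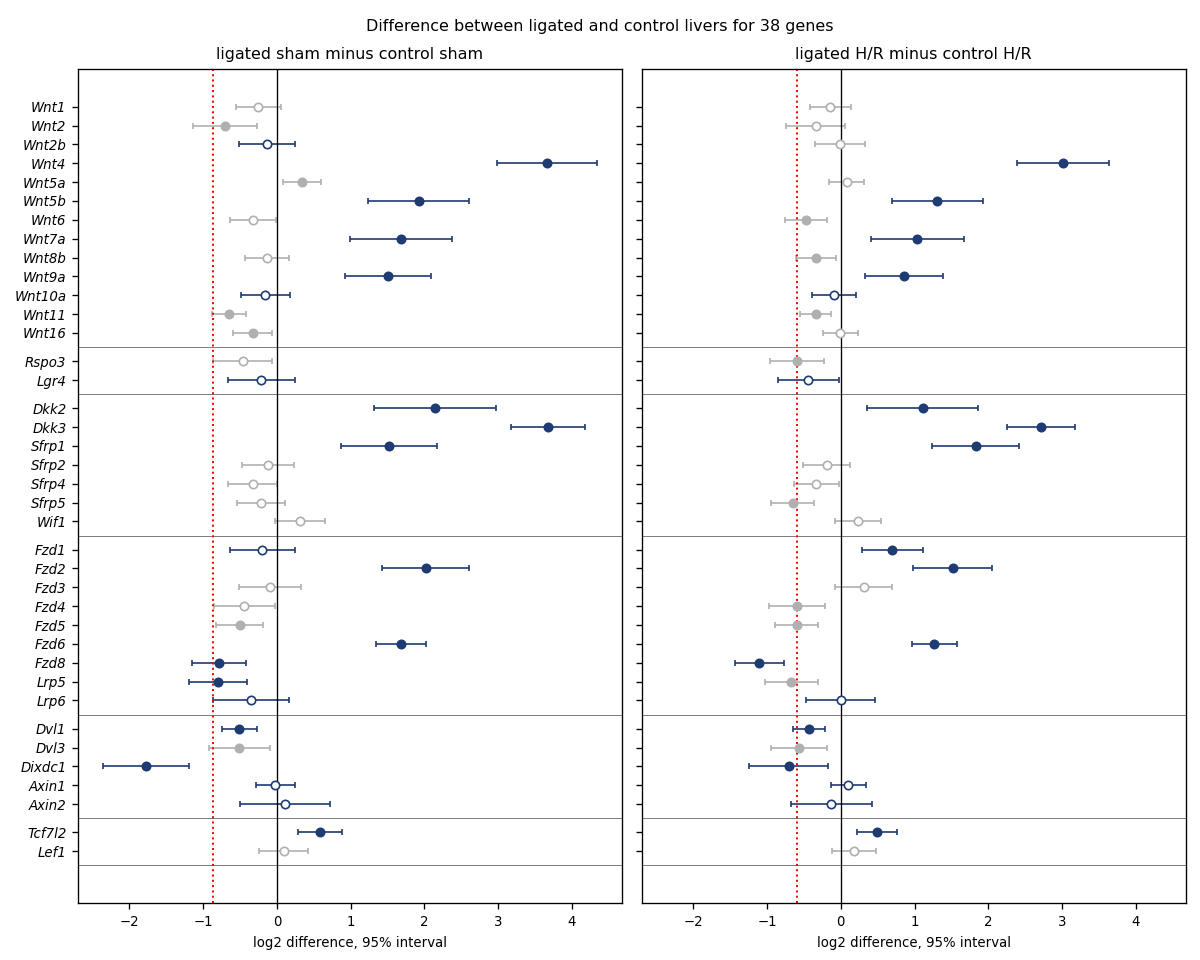
Difference between ligated and control livers on the log2 scale for the 38 genes, after the sham procedure (left) and after hemorrhage and resuscitation (right), grouped from top to bottom as ligands, R-spondin and its receptor, secreted modulators, receptors and co-receptors, cytoplasmic proteins and nuclear factors. Points are limma estimates with 95% intervals, filled where the adjusted p was under 0.05 and grey where neither group was above background, and the red dotted line marks the difference of the background itself. Wnt4 (3.66) and Dkk3 (3.68) stand farthest to the right in the sham arm, and many of the grey genes lie between zero and the dotted line.

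Wnt4, a ligand known for tubule formation in the kidney, was at 4.03, 3.02, 3.37, 3.62 and 3.27 in the 5 control sham livers and at 7.61, 7.3, 5.89, 7.66 and 7.12 in the 5 ligated sham livers. Every ligated liver was above every control liver, and the control mean of 3.46 lay under the background there. The log2 difference was 3.66 ± 0.33 (SE, adjusted p = 9.1e-11 by limma), which is at least 6.11-fold when the control is set at its background. After hemorrhage and resuscitation the 6 control livers ran from 3.06 to 4.81 (median 3.86) and the 6 ligated livers from 5.88 to 7.57 (median 6.95), again apart, at a difference of 3.01 ± 0.30 and at least 4.58-fold (adjusted p = 8.1e-10 by limma).

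Wnt5b, a ligand of the branch that does not use beta-catenin, was at 5.13, 4.87, 5.65, 4.95 and 4.63 in control sham and at 7.43, 7.21, 5.93, 7.22 and 7.05 in ligated sham livers. The groups did not overlap, although ligated replicate 3 was close to the highest control. Wnt5b was the only ligand above background in all groups, and its rise was 3.79-fold (log2 1.92 ± 0.33, adjusted p = 1.5e-05 by limma). Among H/R livers controls ran from 4.42 to 5.05 (median 4.84) and ligated livers from 5.4 to 7.11 (median 5.88), a 2.48-fold difference (1.31 ± 0.30, adjusted p = 6.2e-04) with no overlap.

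Wnt7a was at 3.28, 3.5, 3.02, 3.36 and 3.28 in control sham and at 4.89, 5.38, 4.55, 5.26 and 4.73 in ligated sham livers. Wnt9a was at 3.3, 3.59, 3.85, 3.73 and 3.72 in control sham and at 5.54, 5.25, 4.56, 5.48 and 4.88 in ligated sham livers. Neither overlapped and both control means were under background, so that the log2 differences of 1.68 ± 0.34 (adjusted p = 1.2e-04 by limma) and 1.5 ± 0.29 (5.8e-05) stand for at least 1.37-fold and at least 1.55-fold. After H/R both were called again, Wnt7a at 1.04 ± 0.31 (adjusted p = 0.0064) and Wnt9a at 0.86 ± 0.26 (0.0073), but the arrays overlapped. Ligated H/R medians were 4.04 for Wnt7a and 4.47 for Wnt9a, with lowest arrays at 3.39 and 3.77, and no bound above 1-fold could be given.

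The remaining 9 ligands gave no rise above background. Wnt5a, the close relative of Wnt5b, was called higher in the sham arm by 0.34 ± 0.13 (adjusted p = 0.027 by limma), with means of 2.49 and 2.84 that were both under background. Wnt2, Wnt11 and Wnt16 were called lower there, by -0.70, -0.65 and -0.33, with both groups under background. The second probe sets of Wnt2 and Wnt11, close to them in signal, gave -0.17 and 0.17 and were not called. The sham calls of Wnt5a and Wnt16 were each lost in 9 of 17 alternatives, with adjusted p up to 0.33 and 0.17. Wnt2 and Rspo3 are known in the mouse as signals from the endothelium of the central vein. Rspo3 was at 4.2, 3.83, 3.9, 4.25 and 3.83 in control sham and at 3.3, 3.85, 3.83, 3.33 and 3.41 in ligated sham livers, a difference of -0.46 ± 0.20 that did not pass (adjusted p = 0.054). Rspo3 passed in the H/R arm, at -0.60 ± 0.18 (adjusted p = 0.0067), with both groups under background. A second, dimmer probe set of Rspo3 had the reverse pattern of calls. It passed in the sham arm (-0.54, adjusted p = 0.0063 by limma over 19069 probe sets) and not in the H/R arm (-0.34, 0.054). The R-spondin receptor Lgr4 was above background in every group, with group means from 4.74 to 5.21, and passed in no comparison. Wnt6 and Wnt8b were called lower in the H/R arm only among the ligation comparisons, by -0.47 and -0.34, the call of Wnt8b being lost in 9 of 19 alternatives (adjusted p up to 0.14). A second probe set of Wnt6, of nearly the same mean signal (2.76 against 2.77), gave -0.06 in the H/R arm and was not called. Wnt1, Wnt2b and Wnt10a passed in neither arm, with 95% intervals of the sham difference from -0.56 to 0.05, from -0.51 to 0.24 and from -0.49 to 0.18.

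Of the secreted modulators 3 rose. Dkk3, a divergent Dickkopf protein, was at 4.48, 4.45, 3.84, 3.45 and 4.31 in control sham and at 8.25, 8.06, 6.77, 8.19 and 7.69 in ligated sham livers. No array overlapped, and the difference of 3.68 ± 0.25 stood for at least 9.18-fold (adjusted p = 7.6e-14 by limma). After H/R Dkk3 ran from 4.27 to 5.32 (median 4.51) in controls and from 6.63 to 7.7 (median 7.6) in ligated livers (2.71 ± 0.22, adjusted p = 9.2e-12). The control mean of 4.6 was at the background of 4.59, and against background the rise was at least 5.57-fold. The rise rests on 1 probe set, since the other for Dkk3 had a mean of 2.15 over all arrays and a sham difference of 0.05.

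Dkk2, which binds the co-receptors Lrp5 and Lrp6, was at 2.48, 2.08, 2.5, 2.99 and 2.75 in control sham and at 4.9, 5.15, 3.51, 5.37 and 4.59 in ligated sham livers. Sfrp1, which binds Wnt proteins, was at 3.1, 2.47, 3.33, 3.53 and 2.57 in control sham and at 5.04, 4.89, 4.14, 4.52 and 4.0 in ligated sham livers. Both sets of arrays were apart, with all control sham arrays of both genes under the lowest background of that group, 4.05. The differences of 2.15 ± 0.40 for Dkk2 (adjusted p = 4.8e-05 by limma) and 1.52 ± 0.32 for Sfrp1 (1.9e-04) stood for at least 1.15-fold and at least 1.01-fold. Sfrp1 in the H/R arm stayed apart at 1.83 ± 0.29 (at least 1.22-fold, adjusted p = 4.1e-06), whereas Dkk2 overlapped at 1.11 ± 0.37 (adjusted p = 0.013). With background as a covariate, chosen after its difference between groups was seen, Dkk2 in the H/R arm no longer passed (0.96, adjusted p = 0.064). The second probe set of Sfrp1 had a sham difference of 0.18. The other Wnt-binding inhibitors, Sfrp2, Sfrp4, Sfrp5 and Wif1, were under background everywhere, and of these only Sfrp5 was called, lower in the H/R arm by -0.65 ± 0.15.

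**Figure D2:**
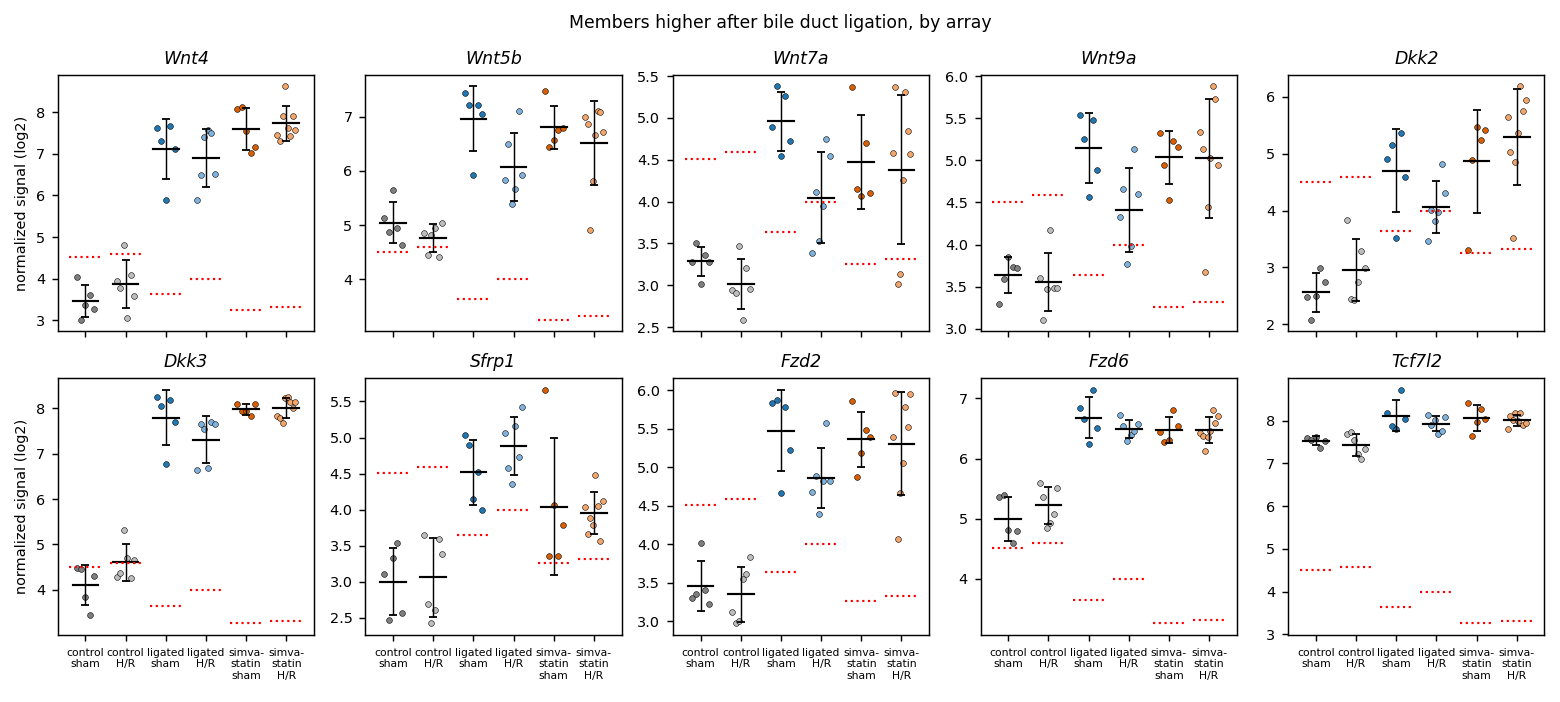
Normalized log2 signal of the 10 genes that rose after ligation with a group above background, 1 dot per array, in the 6 groups from left to right; the bar is the group mean, the error bar the SD and the red dotted line the group mean of the brightest nonspecific probe. For Wnt4 and Dkk3 all arrays of the 4 ligated groups lie above all control arrays, and for Wnt7a, Wnt9a and Dkk2 the spread within the ligated groups is wide, down to 3.01 for Wnt7a in simvastatin H/R.

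Of the 7 Frizzled receptors 2 rose. Fzd2 was at 3.3, 3.35, 4.02, 3.4 and 3.22 in control sham and at 5.83, 5.88, 4.66, 5.79 and 5.23 in ligated sham livers. Fzd6, in the mouse a receptor of the polarity branch, was at 5.36, 5.39, 4.82, 4.6 and 4.8 in control sham and at 6.84, 6.66, 6.24, 7.14 and 6.51 in ligated sham livers. Neither gene overlapped in either arm. Fzd6, above background in both groups, was 3.21-fold higher in the sham arm (1.68 ± 0.17, adjusted p = 6.1e-10 by limma) and 2.41-fold higher in the H/R arm (1.27 ± 0.15, 3.0e-08). Fzd2 differed by 2.02 ± 0.29 and at least 1.96-fold in the sham arm (adjusted p = 6.3e-07) and by 1.52 ± 0.26 and at least 1.21-fold in the H/R arm (1.4e-05).

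Fzd8 went the other way. Its levels were 7.52, 7.03, 7.63, 7.48 and 7.31 in control sham and 6.52, 6.76, 7.12, 6.3 and 6.35 in ligated sham livers, 1.72-fold lower with 1 ligated array inside the control range (-0.78 ± 0.18, adjusted p = 5.5e-04 by limma). In the H/R arm the fall was 2.16-fold with no overlap, from 6.96 to 7.83 (median 7.28) in controls to 6.03 to 6.39 (median 6.17) in ligated livers (-1.11 ± 0.16, adjusted p = 1.2e-06). Lrp5, the co-receptor, was at 4.62, 5.21, 4.94, 4.62 and 4.28 in control sham and at 3.69, 4.05, 3.99, 3.77 and 4.18 in ligated sham livers (-0.80 ± 0.19, adjusted p = 9.7e-04), a difference of the size of that in background. After H/R Lrp5 was lower by -0.67 ± 0.18 with neither group above background. A second, dimmer probe set of Lrp5 gave -0.45 in the sham arm and was not called (adjusted p = 0.087 by limma over 19069 probe sets). In the H/R arm it gave -0.53 (0.029). Lrp6 passed in neither arm, at -0.35 (95% interval -0.87 to 0.16) and -0.00 (-0.47 to 0.46). Fzd1 did not pass in the sham arm (-0.20, 95% interval -0.64 to 0.25) and was higher in ligated than in control livers after H/R by 0.70 ± 0.20 (adjusted p = 0.0044), where control livers were low, as described below. That call was lost with background as a covariate (0.54, adjusted p = 0.051). Fzd3 passed in neither arm, Fzd5 was called lower in both (-0.50 and -0.60) and Fzd4 in the H/R arm (-0.60), all under background.

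In the cytoplasm the largest difference was that of Dixdc1, whose DIX domain binds Dishevelled and Axin. It was at 8.21, 8.7, 7.55, 7.45 and 8.13 in control sham and at 5.9, 6.05, 6.32, 6.54 and 6.37 in ligated sham livers. Dixdc1 was above background in every array, the groups lay apart, and the fall was 3.41-fold (-1.77 ± 0.29, adjusted p = 5.5e-06 by limma). After H/R the difference was -0.70 ± 0.26 (adjusted p = 0.028) with overlap, since control livers had spread from 5.6 to 8.32. That call did not hold without control H/R replicate 1 or 3 or ligated H/R replicate 2 or 4, nor in the fit of those groups alone (adjusted p = 0.11) or with background as a covariate (-0.57, 0.12), the range over all alternatives being -0.94 to -0.39.

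Dvl1, a Dishevelled protein, was at 6.7, 7.02, 6.71, 6.44 and 6.89 in control sham and at 6.2, 5.82, 6.56, 6.31 and 6.33 in ligated sham livers, 1.42-fold lower with overlap (-0.51 ± 0.12, adjusted p = 5.5e-04 by limma). It was 1.35-fold lower without overlap in the H/R arm (-0.43 ± 0.11, adjusted p = 0.0012), and a second probe set gave -0.38 in the sham arm. With background as a covariate the sham call was lost (-0.31, adjusted p = 0.058). Dvl3 was called lower in both arms, by -0.51 and -0.57, with both groups under background, and its sham call was lost in 6 of 17 alternatives (adjusted p up to 0.12). Axin1 passed in neither arm, its group means lying between 6.04 and 6.2.

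Axin2, the feedback inhibitor whose transcript is a common reading of beta-catenin activity, did not differ detectably. It was at 5.11, 4.31, 4.26, 4.3 and 3.88 in control sham and at 4.2, 4.54, 4.36, 4.59 and 4.71 in ligated sham livers. The ranges overlapped, and the 95% interval of the difference ran from -0.50 to 0.72 in the sham arm and from -0.68 to 0.43 in the H/R arm, with both control groups under background. Of the nuclear factors, Tcf7l2 was at 7.6, 7.55, 7.63, 7.37 and 7.53 in control sham and at 8.17, 7.87, 7.8, 8.72 and 8.05 in ligated sham livers, 1.5-fold higher with no overlap (0.58 ± 0.15, adjusted p = 0.0014 by limma). The H/R difference was 0.49 ± 0.13 (adjusted p = 0.0031), with overlapping arrays. The other 3 probe sets of Tcf7l2, all dimmer, gave -0.22, 0.1 and 0.1 in the sham arm, and over the mean of its probe sets the gene passed in neither arm (0.14, adjusted p = 0.52, and 0.05, adjusted p = 0.8). Lef1 was under background everywhere and passed in neither arm.

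**Figure D3:**
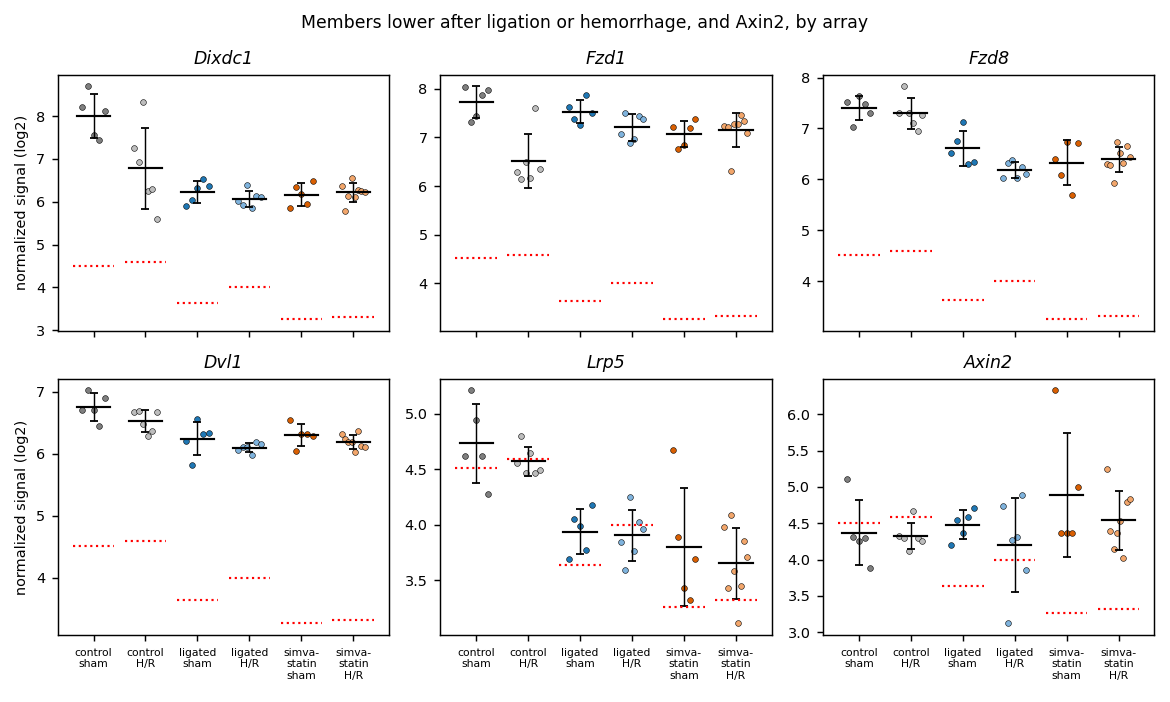
Normalized log2 signal of Dixdc1, Fzd1, Fzd8, Dvl1, Lrp5 and Axin2, 1 dot per array in the 6 groups, with the group mean (bar), SD (error bar) and the group mean of the brightest nonspecific probe (red dotted line). Dixdc1 is at 7.45 or more in control sham and at 6.56 or less in every ligated group, Fzd1 is low in control H/R except for 1 array at 7.61, and Axin2 overlaps across all groups.

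The same 10 genes were called higher in both arms, which share no array. They were Wnt4, Wnt5b, Wnt7a, Wnt9a, Dkk2, Dkk3, Sfrp1, Fzd2, Fzd6 and Tcf7l2. How many of all genes were called higher in both arms was not counted. Both arms were fitted together with 1 estimate of the spread per gene. In both, the title endings differ between control and ligated rats. For Dkk3, Sfrp1 and Tcf7l2 only the brightest probe set was called, in both arms. The second probe set of Wnt7a gave 0.60 in the sham arm (adjusted p = 0.0073 by limma over 19069 probe sets). In the H/R arm it gave 0.06 (0.78). In the H/R arm 11 genes were higher, these 10 and Fzd1, beside 24.7% of all genes, and 12 were lower beside 22.3%. Groups lay apart for 6 of the higher and 3 of the lower genes, beside 14.3% and 8.94% of all genes. Of the 12 lower genes 9 were under background in both groups, and only Dixdc1, Fzd8 and Dvl1 were above it. With background as a covariate the counts became 10 higher and 7 lower in the sham arm and 9 higher and 11 lower in the H/R arm. Of all 13439 genes 2920 were then higher and 2486 lower in the sham arm, and 2997 and 2626 in the H/R arm. How far the lower background of ligated livers moved the dim genes was not tested beyond that fit.

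Within the title ending that all 11 control rats share with 9 ligated rats on simvastatin, an alternative added later, ligation and simvastatin differ together and no test was made. Only genes called in the sham arm with a group above background were read. The control sham arrays behind that call are among these controls, so part of the agreement was fixed beforehand. How many of all genes lay apart in this split was not counted. Wnt4 ran from 3.02 to 4.81 (median 3.62) in these controls and from 7.02 to 7.91 (median 7.55) in these ligated rats, and Dkk3 from 3.45 to 5.32 (median 4.37) and from 7.68 to 8.25 (median 8.0). Fzd2, Fzd6 and Tcf7l2 also lay wholly higher in the ligated rats, and Fzd8 and Lrp5 wholly lower. Wnt5b, Wnt7a, Wnt9a, Dkk2, Sfrp1, Dixdc1 and Dvl1 overlapped, with medians that differed in the direction of the ligation comparisons, such as 4.87 and 6.75 for Wnt5b and 7.45 and 6.19 for Dixdc1.

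Other genes of the same pathway are given by list, each count to be read beside the 25.3% of all genes that were higher and the 22.4% that were lower in the sham arm. Of 15 genes of Wnt secretion and extracellular modulation 5 rose and 4 fell in the sham arm (median 0.15, against -0.04 over all genes). Ptk7, a transmembrane pseudokinase that binds Wnt proteins, was higher by 3.63 ± 0.33 (at least 5.26-fold, since its control mean was under background), Wls, the carrier that takes Wnt proteins to the cell surface, by 2.97 ± 0.35, and Gpc3, a heparan sulfate proteoglycan, by 2.91 ± 0.25 (at least 4.04-fold). Frzb, a secreted relative of Sfrp1, was higher by 1.82 ± 0.25 (at least 3-fold), and Igfbp4 was lower by -0.84 ± 0.19. All 5 passed by limma at adjusted p from 2.1e-11 to 5.8e-04.

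Of 33 genes of the destruction complex and nuclear cofactors 15 rose and 3 fell (median 0.34), led by the corepressors Ctbp2 (2.97 ± 0.27) and Tle3 (1.81 ± 0.20, at least 3.11-fold against a control under background). Ctnnb1, which encodes beta-catenin itself, was higher by 0.66 ± 0.10, Csnk1a1 by 0.63 ± 0.11 and Ctnnbip1, an inhibitor that binds beta-catenin, by 0.88 ± 0.19, while the corepressor Tle1 was lower by -1.05 ± 0.24. Of 18 genes of the polarity and calcium branch 7 rose and 2 fell (median 0.05), among them Camk2d (2.46 ± 0.23), Prickle1 (1.47 ± 0.18), Prickle2 (1.39 ± 0.22, at least 2.03-fold) and Rhoa (0.61 ± 0.13).

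Of 19 genes known as targets of beta-catenin in hepatocytes around the central vein 3 rose and 7 fell (median -0.27). Ccnd1, which encodes cyclin D1, was higher by 1.46 ± 0.23 and Cyp7a1, which opens the conversion of cholesterol to bile acids, by 2.53 ± 0.41. Cyp1a2, a drug-metabolising cytochrome, was lower by -2.82 ± 0.61 and Gulo, the last enzyme of vitamin C synthesis, by -1.20 ± 0.24. Glul, the glutamine synthetase of the innermost hepatocytes, and Cyp2e1 did not pass in the sham arm, at 0.35 ± 0.17 and 0.40 ± 0.23, and after H/R Glul passed at 0.85 ± 0.15 (adjusted p = 2.1e-05 by limma) whereas Cyp2e1 did not (0.42 ± 0.21). Of 12 genes of hepatocytes around the portal tract 2 rose and 5 fell (median -0.14). Of 11 markers of hepatocytes in general 0 rose and 6 fell (median -0.33), and their mean level went from 12.38 (12.35 to 12.42) in control sham to 12.02 (11.83 to 12.27) in ligated sham livers. These lists were not tested against each other, and the part of the hepatocyte share in the pericentral values was not tested.

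Markers of some other cells differed as well. Of 11 cholangiocyte markers 10 rose and none fell in the sham arm, and their mean level went from 4.56 (range 3.93 to 5.06) in control sham to 8.84 (7.97 to 9.16) in ligated sham livers. In control livers Krt7, Sox9, Sctr, Itgb6 and Prom1 were under background, and in ligated livers only Sox9 was. Of 16 markers of stellate cells and portal fibroblasts 12 rose and none fell, with mean levels of 5.45 (5.28 to 5.65) and 6.77 (6.56 to 7.03), and 7 of them were under background in control sham, Col1a1 and Loxl1 included. Of 7 mesothelial markers 3 rose and 0 fell, with mean levels of 5.7 (5.43 to 5.99) and 6.86 (6.63 to 7.11). The 3 were Msln and the keratins Krt8 (8.93 and 11.5) and Krt18 (11.14 and 11.8). Differences in this list ran from -1.4 to 5.7 (median 0.59), and Upk1b and Calb2 were under background in both groups. Whether the mean of this list follows mesothelial cells was not tested. Other lists were mixed or without calls in the sham arm. Of 11 macrophage markers 6 rose and 2 fell, and of 11 endothelial markers 3 rose and 2 fell. Of 10 lymphocyte markers 4 rose and 1 fell, and of 6 neutrophil markers 0 rose and 0 fell. The part of any of these cells in the rise of the Wnt genes was not tested.

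Variation between livers within the ligated groups gave a further view of the 10 raised genes. Each array's deviation from its group mean was taken over the 24 arrays of the 4 ligated groups, and 85 relations were computed, each with a permutation test that shuffled arrays within groups (100000 resamples, two-sided, smallest possible p 1e-05). These relations were chosen after the values had been seen. Of 45 pairs among the 10 genes 15 passed by Pearson's r after Benjamini-Hochberg adjustment, all positive. By Spearman's rho Dkk2 with Dkk3, Fzd2 and Wnt5b, and Fzd6 with Tcf7l2 and Wnt5b, did not pass. Their adjusted permutation p for rho ran from 0.058 to 0.09. Without the 2 farthest arrays r of Dkk2 with Dkk3, Fzd2 and Wnt5b was 0.31, 0.27 and 0.23. The closest set was Wnt5b, Wnt7a, Wnt9a and Fzd2, 3 ligands and 1 receptor. For Wnt5b and Wnt9a Pearson's r was 0.92 and Spearman's rho 0.90 (adjusted permutation p = 2.8e-04 for both), and r was 0.86 without the 2 arrays farthest from the median of Wnt9a. For Fzd2 and Wnt5b r was 0.90 (rho 0.85, adjusted permutation p = 2.8e-04) and for Fzd2 and Wnt7a 0.86 (rho 0.86, 2.8e-04), each 0.80 or more without the 2 farthest arrays. The other pairs of the set had r between 0.81 and 0.82. Among the 6 and the 9 arrays whose titles share an ending, r of Wnt5b with Wnt9a was 0.95 and 0.93.

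The same genes moved with the cholangiocyte markers. Relations of other genes, with each other or with this list, were not computed. The relations given here are therefore not shown to be particular to the Wnt genes. With the mean of that list r was 0.78 for Wnt5b (rho 0.59), 0.78 for Wnt9a (rho 0.67), 0.76 for Fzd2 (rho 0.60), 0.74 for Fzd6 (rho 0.74) and 0.70 for Wnt7a (rho 0.65), with adjusted permutation p for r from 0.0011 to 0.0067. Without the 2 arrays farthest from the median r stayed between 0.59 and 0.68 for these 5 genes. Within the title endings these r ran from 0.54 to 0.83 over the 6 arrays and from 0.71 to 0.88 over the 9. For Dkk2 rho was 0.42 (adjusted permutation p = 0.18), and r was 0.59 (0.032) but 0.30 without the 2 farthest arrays. It was -0.04 within the 6 arrays of the first ending, 0.64 within the 9 of the second, and 0.65 without simvastatin sham replicate 1, so the value depends on which arrays enter. For Wnt4 r with the cholangiocyte list was -0.22 (rho -0.37, adjusted permutation p = 0.47). It was -0.63 without the 2 farthest arrays, -0.85 within the 6 arrays of the first ending and -0.67 within the 9 of the second, none of these with a test. Wnt4 had r with Wnt5b, Wnt7a, Wnt9a and Fzd2 of 0.09, -0.06, -0.03 and 0.07. For Dkk3, Sfrp1 and Tcf7l2 r with that list was 0.39, 0.11 and 0.29, none past adjustment. None of the 20 relations with the stellate and mesothelial lists passed, nor did any of the 10 with background.

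**Figure D4:**
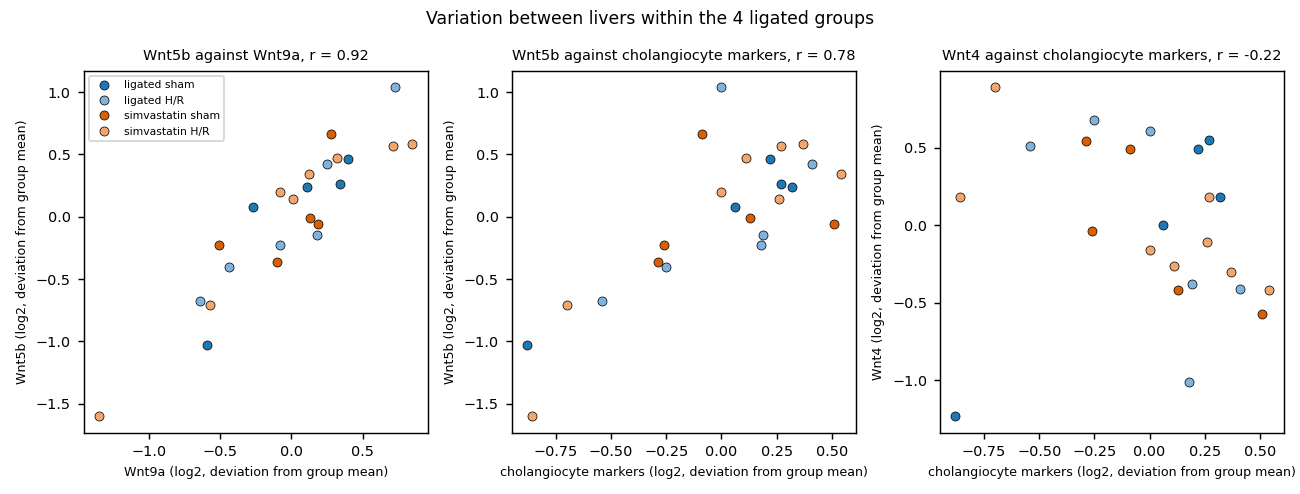
Deviations from the group mean (log2) for the 24 ligated arrays, coloured by group: Wnt5b against Wnt9a (left, r = 0.92), Wnt5b against the mean of the cholangiocyte markers (middle, r = 0.78) and Wnt4 against the same markers (right, r = -0.22). The left panel forms a narrow band, 2 arrays at the lower left carry part of the middle relation, and the right panel shows no rising band.

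The next comparisons asked what hemorrhage and resuscitation did in each kind of liver. In control livers 2 of the 38 genes passed, both lower, beside 0.491% of all genes lower, and 0 were higher, beside 0.365%. Fzd1 was at 8.03, 7.32, 7.44, 7.88 and 7.98 in control sham and at 6.15 to 7.61 (median 6.31) in the 6 control H/R livers (-1.22 ± 0.21, adjusted p = 0.0019 by limma). Of those 6 livers 5 were under every sham array, and replicate 5, at 7.61, was inside the sham range. Dixdc1 in control H/R had its values spread from 5.6 to 8.32 with a median of 6.62, against 7.45 to 8.7 in control sham (-1.23 ± 0.28, adjusted p = 0.023). Replicate 3 of control H/R lay inside the sham range and the others below it. In a fit of those groups alone neither gene passed (adjusted p = 0.095 for Fzd1 and 0.25 for Dixdc1), and Dixdc1 also failed without control sham replicate 1, 2 or 5 or control H/R replicate 4 or 6. Among the other pathway genes Tle3 rose by 0.98 ± 0.19 and Ccnd1 fell by 0.88 ± 0.22 on the log2 scale.

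In ligated livers 0 of the 38 genes passed for hemorrhage and resuscitation, beside 0.134% of all genes. Of the 38, 6 had an unadjusted p under 0.05, all with lower levels, beside 1401 of all 13439 genes. Wnt7a was at 4.05 ± 0.54 after H/R (SD, n = 6) and 4.96 ± 0.35 in the sham group (n = 5), Wnt5b at 6.07 ± 0.62 and 6.97 ± 0.59, and Wnt9a at 4.41 ± 0.5 and 5.14 ± 0.42. The log2 differences were -0.92, -0.90 and -0.73, with adjusted p of 0.31, 0.32 and 0.35 by limma. The others were Fzd2 (-0.61), Dkk3 (-0.48) and Fzd8 (-0.43). In ligated livers on simvastatin 0 of the 38 passed, beside 0% of all genes. Wnt10a (0.38, adjusted p = 0.85 by limma) and Wnt5a (0.29, 0.85) had an unadjusted p under 0.05, beside 725 of all 13439 genes.

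The difference between these responses was tested itself. For ligated minus control livers 0 of the 38 genes passed, beside 0.00744% of all genes. Fzd1 differed by 0.90 (95% interval 0.29 to 1.5, adjusted p = 0.66 by limma), Dixdc1 by 1.07 (0.28 to 1.86, 0.73) and Dkk3 by -0.97 (-1.65 to -0.30, 0.69), so that the falls of Fzd1 and Dixdc1 were not shown to differ between control and ligated livers. For simvastatin minus untreated ligated livers 0 passed as well. There was 1 unadjusted p under 0.05, that of Fzd8 (0.50), beside 654 over all 13439 genes.

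The last comparisons asked what simvastatin changed in ligated livers. In the sham arm 0 of the 38 genes passed, beside 0.781% of all genes, with differences from -0.49 to 0.46. Fzd1 (-0.46, adjusted p = 0.45 by limma) and Wnt5a (-0.30, 0.38) had an unadjusted p under 0.05, beside 1453 of all 13439 genes. Without simvastatin sham replicate 1, the array that stood apart, again 0 of the 38 passed, beside 168 of all 13439 genes. The raised genes kept levels near those of ligated sham livers: Wnt4 was at 8.07, 8.12, 7.55, 7.02 and 7.16 in the 5 simvastatin sham livers and Dkk3 at 8.1, 7.93, 7.93, 7.82 and 8.1.

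In the H/R arm simvastatin gave 0 calls among the 38 genes, beside 1.35% of all genes. There were 6 unadjusted p under 0.05 among the 38, beside 1932 over all 13439 genes. Dkk2 was at 3.52 to 6.19 (median 5.51) in the 8 simvastatin H/R livers and at 3.46 to 4.82 (median 3.99) in the 6 ligated H/R livers, a difference of 1.22 (95% interval 0.52 to 1.92, adjusted p = 0.066 by limma). Lrp6 was lower by -0.76 (-1.20 to -0.32, 0.068) and Sfrp1 by -0.94 (-1.49 to -0.38, 0.076). Dkk3, Wnt4 and Wnt9a were higher by 0.70, 0.84 and 0.61, with adjusted p of 0.09, 0.14 and 0.23. All of these genes overlapped between the groups. When arrays were weighted by quality the same 6 genes passed, 4 higher and 2 lower, with adjusted p from 0.0012 to 0.048 by limma. Of all 13439 genes 451 were then higher and 293 lower. The other fits gave at most 2 members in a direction, beside 20 to 342 of all genes called in either direction. Of the other pathway genes Csnk2a1, a subunit of casein kinase 2, fell by 0.74 ± 0.18 in the sham arm and by 1.03 ± 0.15 in the H/R arm, Rhoa and Prkca fell by 0.59 and 0.63 in the sham arm, and Apc2 rose by 0.98 ± 0.22 in the H/R arm.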

How the data were processed

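The values are normalized log2 signals per probe set as deposited by the authors. How they were normalized is not given in the labels or headers used here, and the scale was taken as log2 because the values ran from 1.51 to 13.79 with array medians of 3.97 to 4.29. Per the labels, biotin-labelled total RNA of liver was hybridised by the Affymetrix protocol. Of 31139 probe sets 19069 carried 1 gene symbol in the platform table, 572 several and 11498 none, and single-symbol probe sets gave 13439 genes, each by its brightest probe set over all arrays. One probe set that listed Dvl2 more than once was not counted as single. All 38 symbols are current in RefSeq.

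Groups came from the labels, and replicate numbers follow sample order. No pair of the 35 arrays was identical (highest correlation 0.992). Differences were fitted with limma 3.58.1 in R 4.3.3 on all arrays with 1 mean per group, empirical Bayes moderation and Benjamini-Hochberg adjustment over 13439 genes within each of 9 comparisons, called at an adjusted p under 0.05. The code was tested on simulated data. Where only 1 group was above background, a fold is the bright mean minus the dim group's mean of the higher of background and its own signal on each array, given as at least that fold. Every member is named; those called get values, and values by array are given for those that differed by 1 or more on the log2 scale in the sham arm or passed in a hemorrhage or simvastatin comparison, with some others added after their values were seen. Of other pathway lists, genes with the smallest p were named, and a few more for their known role. Members and lists were chosen with earlier results of these data known. Arrays have no read depth, so their number limits precision. Similar sequences within the families may cross-hybridise, which was not tested.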

Additional observations from a re-analysis of the deposited data

Results flagged for a closer look

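Of 96 group values over 16 genes, 6 had 1 array far from the rest of its group by Dixon's criterion, which marks about 1 in 20 groups by chance. Dkk2 was at 3.3 in simvastatin sham replicate 1, the array whose 3′ to 5′ signals stood apart, and at 4.89 to 5.47 in the other arrays of that group. Fzd1 was at 7.61 in control H/R replicate 5, against 6.15 to 6.49 in the others, and at 6.31 in simvastatin H/R replicate 3, against 7.1 to 7.46. Fzd2 was at 4.02 in control sham replicate 3, against 3.22 to 3.4. Wnt4 was at 8.62 in simvastatin H/R replicate 4, against 7.3 to 7.91. Wnt5b was at 5.93 in ligated sham replicate 3, against 7.05 to 7.43, and the same liver was the lowest of its group for Wnt4 (5.89), Wnt7a (4.55), Wnt9a (4.56), Dkk2 (3.51), Dkk3 (6.77), Fzd2 (4.66), Fzd6 (6.24) and Tcf7l2 (7.8).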

How the results depend on the processing

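No paired analysis was made, since the labels give 6 groups of rats and no pairing between them. The 45 called results of single genes were refitted under 844 alternatives: 792 stayed past the threshold in the same direction, 52 did not pass, and 0 turned direction, with 32 results holding under all. With genes under the 30th percentile left out, which kept 20 of the 38 genes, 4 were lower after ligation in the sham arm and 4 in the H/R arm. Of all 9407 genes kept 2308 and 2261 were lower. With arrays centred on their median 15 were lower in the sham arm, beside 5128 of all 13439 genes. For H/R in control livers 1 gene was higher after quantile normalization, beside 55 of all genes. In the fit of those groups alone 0 were lower, beside 3 of all genes. For simvastatin in the H/R arm 4 were higher and 2 lower with array weights, beside 451 and 293 of all genes. In the fit of those groups alone 1 was lower, beside 51 of all genes, and after quantile normalization 1, beside 85. Leaving out 1 array at a time gave 10 to 11 higher and 8 to 11 lower after ligation in the sham arm. Of all genes 3115 to 3496 were then higher and 2559 to 3223 lower. In the H/R arm it gave 11 higher and 10 to 13 lower, beside 3025 to 3356 and 2552 to 3012 of all genes. For H/R in controls it gave 0 to 1 higher and 1 to 2 lower, beside 16 to 93 and 31 to 106. For simvastatin in the H/R arm it gave 0 to 2 higher and 0 to 1 lower, beside 71 to 223 and 29 to 148. In the other comparisons it gave 0 members, beside at most 168 of all genes. Over all genes, calls for H/R in controls went from 115 to 11 in the fit of those groups alone, those for simvastatin in the H/R arm from 182 to 20 with the title ending as a block, 89 with background as a covariate and 744 with array weights, those for simvastatin in the sham arm from 105 to 22 in the fit of those groups alone and 397 with array weights, and those for H/R in ligated livers from 18 to 3 and 43 likewise, or 5 with background as a covariate. The cause was not tested, except that the percentile filter left fewer genes to test. Signal near background limits the 15 genes never above it.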
